A study of Arabidopsis thaliana with 18 samples.

Results

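Transcript levels of 10 Arabidopsis thaliana genes that act in chlorophyll synthesis were followed in seedlings through 3 days at 37 °C and the 24 h after it, in a line with an insertion in PRMT5 and in the wild type. The genes, taken by their gene identifiers from a table of 37916 genes, were HEMA1 (AT1G58290), GUN4 (AT3G59400), CHLH (AT5G13630), CHLI1 (AT4G18480), CHLD (AT1G08520), CHLM (AT4G25080), CRD1 (AT3G56940), PORB (AT4G27440), PORC (AT1G03630) and CAO (AT1G44446). All 10 had a mean of at least 1 TPM over the libraries and were tested with 21831 genes in all. The mutant plants carried an insertion in PRMT5, an arginine methyltransferase gene, described in the labels only as a T-insert, and are called prmt5; WT is the wild type. Each genotype was kept at 22 °C, held at 37 °C for 3 days and sampled at 0 h (heat), or sampled 24 h after the same heat ended (recovery), with 3 libraries in each of 6 groups. All plants grew on half-strength MS medium with sucrose. The insertion allele, the number of lines, the plants' age, the temperature of recovery and the hour at which seedlings were taken are stated nowhere in the sources used here. The labels do not say that libraries of 1 group came from separately grown plants, so each p-value rests on how far these libraries spread, and that spread may be technical.

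Chlorophyll is built in the plastid from 5-aminolevulinic acid through a chain of porphyrins that it shares with heme. Insertion of magnesium by the Mg-chelatase commits the porphyrin to chlorophyll, and later steps close the isocyclic ring, reduce protochlorophyllide in the light and oxidise part of chlorophyll a to chlorophyll b. The intermediates are photosensitisers, so supply and use are held in balance in green tissue, at the transcript level and through proteins that bind the enzymes.

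By role, HEMA1 encodes glutamyl-tRNA reductase, the controlled step of 5-aminolevulinic acid supply. CHLH, CHLI1 and CHLD encode the subunits of Mg-chelatase, and GUN4 a porphyrin-binding protein that stimulates it. CHLM encodes the methyltransferase that acts on Mg-protoporphyrin IX, and CRD1 the membrane subunit of the cyclase that closes the isocyclic ring. PORB and PORC encode light-dependent protochlorophyllide oxidoreductases, and CAO the chlorophyllide a oxygenase that makes chlorophyll b.

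The stretch in front of the gene start is shown for 3 genes whose change at heat in WT did not pass the test (HEMA1, CHLH and CAO) and for 2 that fell in both genotypes (CHLD and CRD1), so that the letters can be set beside the values. Sequences were read from the RefSeq TAIR10.1 genome by gene identifier, 250 bases before the annotated start, or the 189 of them that lie in no other gene for CRD1. They lie at chr1:21626403-21626652 (- strand) for HEMA1, chr5:4392430-4392679 (- strand) for CHLH, chr1:2696131-2696380 (+ strand) for CHLD, chr3:21076316-21076504 (+ strand) for CRD1 and chr1:16851272-16851521 (- strand) for CAO. Each runs 5′ to 3′ on the strand of its gene up to the base before the start, and capitals mark the G-box CACGTG, which is the same on both strands.
HEMA1: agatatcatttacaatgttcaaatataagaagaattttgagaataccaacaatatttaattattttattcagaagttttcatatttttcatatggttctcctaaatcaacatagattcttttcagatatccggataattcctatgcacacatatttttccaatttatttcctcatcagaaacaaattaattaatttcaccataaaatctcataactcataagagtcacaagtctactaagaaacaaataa
CHLH: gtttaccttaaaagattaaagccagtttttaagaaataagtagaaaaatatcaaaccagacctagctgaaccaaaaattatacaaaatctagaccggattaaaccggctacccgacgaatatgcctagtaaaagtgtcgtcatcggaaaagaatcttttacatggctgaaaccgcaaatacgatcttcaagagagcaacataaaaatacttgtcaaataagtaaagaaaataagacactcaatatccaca
CHLD: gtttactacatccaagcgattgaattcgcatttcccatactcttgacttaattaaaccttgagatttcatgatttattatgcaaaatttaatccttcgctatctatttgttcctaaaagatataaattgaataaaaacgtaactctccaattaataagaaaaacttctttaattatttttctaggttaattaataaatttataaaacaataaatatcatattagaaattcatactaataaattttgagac
CRD1: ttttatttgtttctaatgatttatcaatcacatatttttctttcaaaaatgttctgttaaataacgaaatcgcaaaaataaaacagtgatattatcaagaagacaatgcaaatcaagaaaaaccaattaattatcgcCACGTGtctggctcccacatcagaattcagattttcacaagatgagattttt
CAO: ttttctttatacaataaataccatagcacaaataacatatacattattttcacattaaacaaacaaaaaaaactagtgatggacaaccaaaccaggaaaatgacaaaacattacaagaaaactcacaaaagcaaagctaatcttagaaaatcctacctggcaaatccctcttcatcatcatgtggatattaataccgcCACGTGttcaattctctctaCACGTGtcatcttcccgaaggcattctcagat

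Within these 250-base windows a G-box stood in front of 2 of the 10 genes, once in CRD1, 52 to 47 bases before the start, and at 2 places in CAO, 52 to 47 and 32 to 27 bases before it. Over 27443 gene starts of the same build, 6.49% of windows held one. The ACGT core, which every G-box contains, was found in front of 6 of the 10 genes, against 44.1% of all windows, and CCAATC, searched on both strands, in front of 2 (GUN4 and PORB), against 10.2%. The evening element AAAATATCT stood in front of PORB alone, against 2.36% of all windows. The I-box core GATAAG and the heat shock element core GAANNTTC matched in front of 0 of the 10 genes, against 12.3% and 9.55% of all windows. The windows of GUN4, CHLI1, CHLM, CRD1, PORB and PORC overlap another annotated gene, and that of GUN4 has no free stretch next to the start. Some matches lie beyond the free bases next to the start. These are ACGT in CHLI1 (229 to 226, 128 bases free), ACGT in CRD1 (244 to 241, 189 free) and CCAATC in PORB (219 to 214, 186 free). All the matches describe letters in a window and were not tested for use. CAO and CRD1 share the G-box and not the course at heat in WT, as the values below show.

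The library kit named in the labels does not state strand. Reads from the bases that a gene shares with one on the opposite strand then cannot be told apart. By the TAIR10.1 annotation 8 of the 10 genes overlap another gene, by 36 to 946 bases, and 7 of them one on the opposite strand; HEMA1 and CHLH overlap none. The widest overlap is that of GUN4 with AT3G59410, which averaged 6.24 TPM in prmt5 and 9.62 TPM in WT at heat. CAO overlaps AT1G44414 by 36 bases, and that gene averaged 7.29 TPM in prmt5 and 13.2 TPM in WT at heat, against 0.66 TPM in prmt5 and 0.713 TPM in WT at 22 °C. Close copies can share reads as well. The coding sequences of CHLI1 and CHLI2 were 80.6% identical with a longest shared run of 44 bases, those of PORB and PORA 82.3% with 44, those of PORB and PORC 72.1% with 20, and those of HEMA1 and HEMA2 79.6% with 49.

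Values are TPM, a level scaled for transcript length and to 1 total in all libraries, so that sequencing depth is unknown and levels may be compared between genes. PRMT5 (AT4G31120) stood at 3.39 ± 1.096 TPM in prmt5 and 26.3 ± 1.08 TPM in WT at 22 °C, at 6.65 ± 1.93 and 45.9 ± 1.75 TPM in prmt5 and WT at heat, and at 3.79 ± 0.350 and 39.8 ± 1.08 TPM in prmt5 and WT at recovery (SD, n = 3 each). The libraries labelled prmt5 were thus lower for the targeted transcript in every condition. Within a group, libraries correlated at 0.964 to 0.986 across genes. Organelle-encoded genes held 0.0775% to 0.140% of the TPM in prmt5 and 0.0800% to 0.0924% in WT at 22 °C, and 2.17% to 2.65% in prmt5 and 2.24% to 2.85% in WT at heat. At recovery they held 0.301% and 0.311% in libraries 2 and 1 of prmt5, 0.953% in library 3 of prmt5, and 0.127% to 0.159% in WT. Log2 changes below are on the log2(TPM + 1) scale, first group minus second, with their standard error from limma, and p-values are limma's, adjusted by the Benjamini-Hochberg method over all genes tested; a gene rose or fell where the adjusted p was under 0.05.

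**Figure D1:**
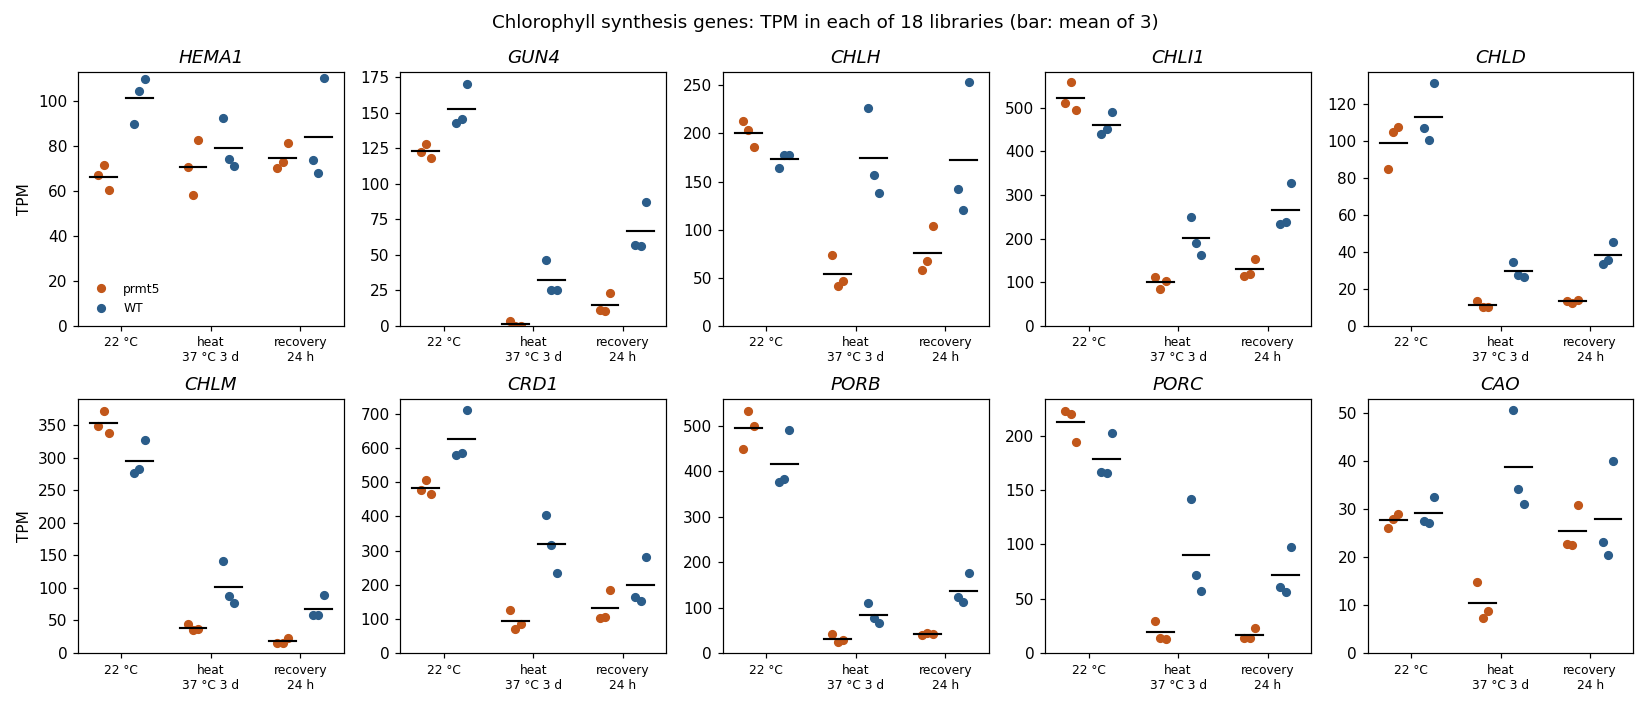
TPM of each of the 10 genes in each of the 18 libraries (points, prmt5 left of WT in each condition, black bar the mean of 3 libraries) at 22 °C, heat and recovery; each vertical axis starts at 0. HEMA1 lies between 58.3 and 110.6 TPM throughout, while the prmt5 points of CHLM, PORB and PORC lie at or below 44.9 TPM at heat and recovery.

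Most of these transcripts were lower at heat than at 22 °C in both genotypes, and further so in prmt5. In prmt5, 9 of the 10 genes fell at heat and HEMA1 did not pass the test, with a median log2 change of -2.72, where the median over all genes tested was 0.19 and 36% of genes fell and 45.5% rose. In WT, 7 fell and HEMA1, CHLH and CAO did not pass, with a median of -1.15, where the median of all genes was 0.35 and 25.7% fell and 49.8% rose. The summed level of the 10 genes was 345 to 531 TPM in prmt5 and 889 to 1499 TPM in WT at heat, against 2497 to 2727 TPM in prmt5 and 2372 to 2846 TPM in WT at 22 °C. At recovery it was 464 to 679 TPM in prmt5 and 919.8 to 1508 TPM in WT. The organelle share given above was higher in every heat library than in every library at 22 °C, and its part in these changes was not tested; with organelle genes left out 9 genes fell in prmt5 and 7 in WT at heat. In whole seedlings, fewer green cells and less of a transcript per cell cannot be told apart.

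After 24 h of recovery most of the genes were still below their level at 22 °C. In prmt5, 8 fell at recovery relative to 22 °C and HEMA1 and CAO did not pass (median log2 change -2.41, all genes 0.45; 24.7% of genes fell and 53.4% rose). In WT the same count as at heat, 7, fell, and HEMA1, CHLH and CAO did not pass (median -1.28, all genes 0.35; 17.3% fell and 49.8% rose). With each library left out in turn, 9 of 10 fell in prmt5 at heat and 8 of 10 at recovery in every run.

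**Figure D2:**
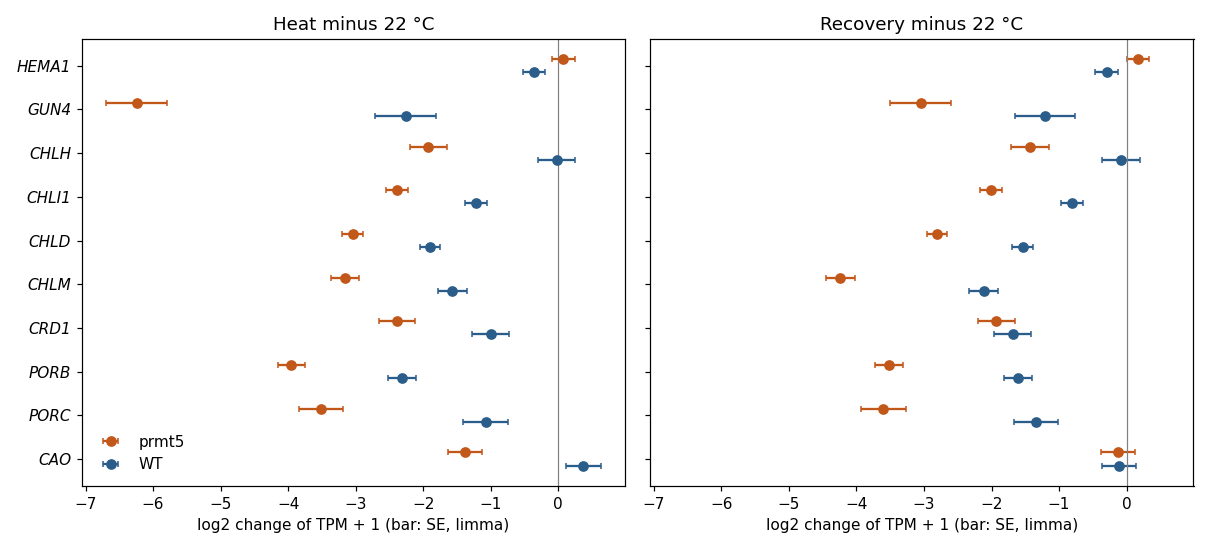
Log2 change of each gene against 22 °C at heat (left panel) and recovery (right panel), prmt5 drawn above WT in each row, with standard errors from limma. The prmt5 point lies to the left of the WT point for every gene but HEMA1; for CAO at recovery the points differ by -0.02.

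HEMA1, which encodes the enzyme at the head of the pathway, kept a narrow range. It stood at 67.1, 71.9 and 60.6 TPM in prmt5 and 90.1, 105 and 109.95 TPM in WT at 22 °C. At heat it had 70.6, 58.3 and 82.9 TPM in prmt5 and 92.7, 74.3 and 71.1 TPM in WT, and at recovery 70.1, 73.2 and 81.6 TPM in prmt5 and 74.0, 68.1 and 111 TPM in WT. The prmt5 libraries lay below all WT libraries at 22 °C, and the genotypes overlapped at heat and at recovery. At 22 °C the difference, prmt5 minus WT, was -0.60 ± 0.17 (adjusted p = 0.0244), the 1 call of the 10 genes between the genotypes there. That call was lost under median-ratio scaling (adjusted p = 0.109), under quantile normalization (0.0511) and without library 2 or 3 of WT or library 1 or 3 of prmt5 at 22 °C (0.0523 to 0.0743). Its change at heat was 0.07 ± 0.17 (adjusted p = 0.691) in prmt5 and -0.36 ± 0.17 (adjusted p = 0.0619) in WT. The WT value at heat passed without library 1 of WT at 22 °C, library 1 of WT at heat or library 3 of WT at recovery (0.0214 to 0.0442) and with only the groups compared (0.0417). The WT value at recovery passed without library 3 of WT at recovery (0.00687). Both WT values passed under quantile normalization (0.00847 at heat and 0.0333 at recovery) and median-ratio scaling, with -0.76 at heat (adjusted p = 0.00169) and -0.68 at recovery (adjusted p = 0.00476).

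GUN4, whose product binds porphyrin and stimulates Mg-chelatase, had the widest range. It had 122, 128 and 118 TPM in prmt5 and 143, 145 and 170.1 TPM in WT at 22 °C. At heat it was listed at 3.39, 0 and 0 TPM in prmt5, and had 46.4, 25.5 and 24.9 TPM in WT. At recovery it had 11.2, 10.4 and 23.3 TPM in prmt5 and 56.6, 56.5 and 86.8 TPM in WT. In each condition every prmt5 library lay below every WT library, with the gap smallest at 22 °C. Its change at heat was -6.24 ± 0.45 (adjusted p = 2.4e-09) in prmt5 and -2.26 ± 0.45 (adjusted p = 0.000281) in WT, and the size in prmt5 depends on the pseudocount, being -8.56 with 0.1 and -4.43 with 5. A TPM of 0 can be a failed estimate: 191 genes were listed at 0 in 2 libraries beside at least 3 TPM in the other one in prmt5 at heat, and 174 in WT at heat. In prmt5 it rose between heat and recovery (3.19 ± 0.45, adjusted p = 9.72e-06). In WT the same step was 1.05 ± 0.45 (adjusted p = 0.0511), with libraries that did not overlap. That WT value passed with a pseudocount of 5 (0.00432), under quantile normalization (0.0477) and with only the groups compared (0.02). It also passed with a filter at a mean of 5 TPM (0.0478) and without some single libraries (0.0035 to 0.0444). With a pseudocount of 0.1 or median-ratio scaling it did not pass. At recovery the difference of GUN4, prmt5 minus WT, was -2.15 ± 0.45 (adjusted p = 0.000746, 0.0505 with a pseudocount of 0.1). Its WT value at recovery relative to 22 °C, -1.21 ± 0.45 (adjusted p = 0.0264), was lost with a pseudocount of 0.1 (0.255) and without library 3 of WT at 22 °C or library 1 or 2 of WT at recovery (0.0688 to 0.0753).

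CHLH, the subunit of Mg-chelatase that carries the porphyrin, fell at heat in prmt5 and did not pass the test in WT. It had 213, 204 and 186 TPM in prmt5 and 164, 177 and 178 TPM in WT at 22 °C. At heat the values were 73.4, 41.3 and 46.4 TPM in prmt5 and 227, 157 and 138 TPM in WT, and at recovery 57.6, 67.1 and 104 TPM in prmt5 and 142, 120.4 and 253 TPM in WT. In WT the heat and recovery libraries overlapped those at 22 °C, whereas in prmt5 all 6 lay below them. It fell at heat in prmt5, with a log2 change of -1.93 ± 0.28 (adjusted p = 8.15e-06), and its change in WT was -0.02 ± 0.28 (adjusted p = 0.946). The difference between these changes was -1.90 ± 0.39 (adjusted p = 0.000833). At recovery the change was -1.43 ± 0.28 (adjusted p = 0.00019) in prmt5 and -0.08 ± 0.28 (adjusted p = 0.806) in WT.

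CHLI1 and CHLD, the ATPase subunit and its partner in the same enzyme, fell in both genotypes. CHLI1 had 510.5, 559 and 496 TPM in prmt5 and 441, 453 and 491 TPM in WT at 22 °C. At heat it had 113, 83.3 and 102 TPM in prmt5 and 249.9, 189.7 and 163 TPM in WT, and at recovery 115, 119.8 and 154 TPM in prmt5 and 235, 238 and 327 TPM in WT. No library at heat or recovery reached the lowest one at 22 °C, and prmt5 lay below WT without overlap at both times. The change at heat was -2.39 ± 0.16 (adjusted p = 1.33e-09) in prmt5 and -1.22 ± 0.16 (adjusted p = 5.71e-06) in WT. CHLD had 84.7, 105 and 108 TPM in prmt5 and 107, 100.4 and 131 TPM in WT at 22 °C. At heat the values were 13.5, 10.01 and 9.90 TPM in prmt5 and 34.3, 27.7 and 26.4 TPM in WT, and at recovery 13.6, 12.2 and 13.7 TPM in prmt5 and 33.3, 35.8 and 45.6 TPM in WT. The genotypes overlapped at 22 °C and at neither later time. CHLD fell to 11.3% of its mean at 22 °C in prmt5 (-3.05 ± 0.15, adjusted p = 2.61e-11) and to 26.1% in WT (-1.90 ± 0.15, adjusted p = 1.26e-08).

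The proportions of the Mg-chelatase transcripts differed between conditions. GUN4 per CHLH transcript, as a ratio of TPM, was 0.613 ± 0.0329 in prmt5 and 0.882 ± 0.0685 in WT at 22 °C, and 0.191 ± 0.0351 in prmt5 and 0.403 ± 0.0633 in WT at recovery (SD, n = 3 each). In WT at heat it was 0.182 ± 0.0208, and in prmt5 at heat 0.0462 in library 1 and 0 in the other 2. CHLD per CHLI1 transcript was 0.190 ± 0.0256 in prmt5 and 0.244 ± 0.0227 in WT at 22 °C, and 0.112 ± 0.0134 in prmt5 and 0.148 ± 0.0126 in WT at heat. These ratios show unequal change and were not tested.

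CHLM, the methyltransferase after Mg-chelatase, was lower at recovery than at heat. It had 349, 372 and 338 TPM in prmt5 and 277, 283 and 327 TPM in WT at 22 °C. At heat it had 44.9, 34.6 and 37.2 TPM in prmt5 and 142, 87.9 and 76.8 TPM in WT, and at recovery 15.4, 15.8 and 23.0 TPM in prmt5 and 58.2, 58.3 and 88.6 TPM in WT. All prmt5 libraries lay above those of WT at 22 °C and below them afterwards. It fell to 5.11% of the mean at 22 °C in prmt5 at recovery (-4.24 ± 0.21, adjusted p = 5.6e-11) and to 23.2% in WT (-2.12 ± 0.21, adjusted p = 3.87e-07). Between heat and recovery it fell in prmt5, with a log2 change of -1.08 ± 0.21 (adjusted p = 0.000245) without overlap. In WT the same comparison gave -0.55 ± 0.21 (adjusted p = 0.0317), with libraries that overlapped and a call that was lost without library 1 of WT at heat (adjusted p = 0.195), without library 1 or 2 of WT at recovery (0.115 and 0.114) and with only the groups compared in the model (0.126).

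CRD1, of the cyclase, had 478, 506 and 467 TPM in prmt5 and 580.0, 585 and 711 TPM in WT at 22 °C. At heat it had 126, 70.9 and 85.3 TPM in prmt5 and 404, 316 and 234 TPM in WT, and at recovery 104, 105 and 184 TPM in prmt5 and 165, 153 and 282 TPM in WT. The genotypes were apart at heat and overlapped at recovery, where library 3 of prmt5 reached 183.8 TPM. At heat CRD1 fell to 19.4% of the mean at 22 °C in prmt5 (-2.39 ± 0.27, adjusted p = 5.49e-07) and to 50.8% in WT (-1.003 ± 0.27, adjusted p = 0.00329). At recovery prmt5 minus WT was -0.60 ± 0.27 (adjusted p = 0.0655), and it passed the threshold without library 3 of prmt5 (-0.87, adjusted p = 0.0134) or without library 2 of WT at recovery (-0.77, adjusted p = 0.0403).

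PORB and PORC, the oxidoreductases that need light, both fell at heat in both genotypes. PORB had 449.7, 534 and 501 TPM in prmt5 and 376, 384 and 492 TPM in WT at 22 °C. At heat it had 41.6, 25.3 and 28.1 TPM in prmt5 and 109.8, 76.3 and 66.3 TPM in WT, and at recovery 40.5, 43.9 and 42.4 TPM in prmt5 and 124, 113 and 176 TPM in WT. The genotypes overlapped at 22 °C only. PORB fell at heat, with a log2 change of -3.95 ± 0.20 in prmt5 (adjusted p = 4.49e-11) and -2.32 ± 0.20 in WT (adjusted p = 4.53e-08), and rose again between heat and recovery in WT (0.71 ± 0.20, adjusted p = 0.00636). In prmt5 that step was 0.44 ± 0.20 (adjusted p = 0.0663), with libraries that overlapped. It passed without library 1 of prmt5 at heat (0.0103), library 1 of WT at heat (0.0408) or library 3 of WT at recovery (0.0457). The difference between the steps, prmt5 minus WT, was -0.275 ± 0.29 (adjusted p = 0.45). PORC had 223, 220.5 and 194 TPM in prmt5 and 167, 166 and 202 TPM in WT at 22 °C. At heat the values were 29.8, 13.9 and 13.2 TPM in prmt5 and 142, 72.1 and 56.9 TPM in WT, and at recovery 13.8, 14.2 and 23.0 TPM in prmt5 and 61.0, 56.5 and 97.3 TPM in WT. Again prmt5 overlapped WT at 22 °C and at neither later time. PORC fell at heat, with a log2 change of -3.51 ± 0.33 in prmt5 (adjusted p = 6.13e-08) and -1.08 ± 0.33 in WT (adjusted p = 0.00784). PORC per PORB transcript was 0.578 ± 0.126 in prmt5 and 1.03 ± 0.231 in WT at heat, against 0.433 ± 0.0568 in prmt5 and 0.429 ± 0.0165 in WT at 22 °C (SD, n = 3 each), a ratio that was not tested. PORA, the form used when dark-grown seedlings first green, had 0.05 to 1.05 TPM over the 18 libraries and was not tested.

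CAO, which makes chlorophyll b, fell at heat in prmt5 and rose between heat and recovery. It had 26.0, 28.0 and 29.1 TPM in prmt5 and 27.6, 27.2 and 32.6 TPM in WT at 22 °C. At heat it had 14.9, 7.40 and 8.87 TPM in prmt5 and 50.8, 34.3 and 31.2 TPM in WT, and at recovery 22.8, 22.5 and 30.9 TPM in prmt5 and 23.1, 20.5 and 40.1 TPM in WT. The genotypes overlapped at 22 °C and at recovery, and at heat the highest prmt5 library lay below the lowest WT library. In prmt5 CAO fell at heat (-1.39 ± 0.25, adjusted p = 0.000101), and its change in WT was 0.37 ± 0.25 (adjusted p = 0.192), which became -0.02 under median-ratio scaling. The difference between the changes was -1.76 ± 0.36 (adjusted p = 0.000781). From heat to recovery it rose in prmt5 (1.254 ± 0.25, adjusted p = 0.000333), and its value in WT was -0.49 ± 0.25 (adjusted p = 0.101), which became -0.77 (adjusted p = 0.0114) without library 3 of WT at recovery. At recovery it was -0.13 ± 0.25 (adjusted p = 0.638) relative to 22 °C in prmt5, a value that became -0.58 (adjusted p = 0.0492) under median-ratio scaling.

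Set side by side, the genotypes were close at 22 °C and apart afterwards. At 22 °C 1 of the 10 genes was lower in prmt5 than in WT and 9 did not pass, with a median log2 difference of 0.05, where all genes had -0.10 and 11.3% were lower and 3.64% higher. Without passing the test, CHLH, CHLI1 and CHLM were higher in all 3 prmt5 libraries than in any WT library at 22 °C, and GUN4 and CRD1 lower. With HEMA1, the libraries of 3 genes lay wholly above and of 3 wholly below, where over all genes 8.79% lay above and 22.5% below. At heat 9 of 10 were lower in prmt5, all but HEMA1, with a median of -1.54, where all genes had -0.34 and 48.3% were lower and 19.9% higher. At recovery 7 of 10 were lower, all but HEMA1, CRD1 and CAO, with a median of -1.30, where all genes had -0.04 and 31.9% were lower and 27.8% higher; without library 3 of prmt5 at recovery 8 were lower, CRD1 among them. The 9 differences at heat ran from -0.996 ± 0.16 for CHLI1 (adjusted p = 6.42e-05) to -4.29 ± 0.45 for GUN4 (adjusted p = 7.02e-07), the last being -6.57 with a pseudocount of 0.1 and -2.60 with 5, and the second lowest was PORC with -2.18 ± 0.33 (adjusted p = 2.85e-05). At recovery PORC (-2.01 ± 0.33, adjusted p = 9.38e-05) and CHLM (-1.86 ± 0.21, adjusted p = 2.79e-06) followed GUN4.

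**Figure D3:**
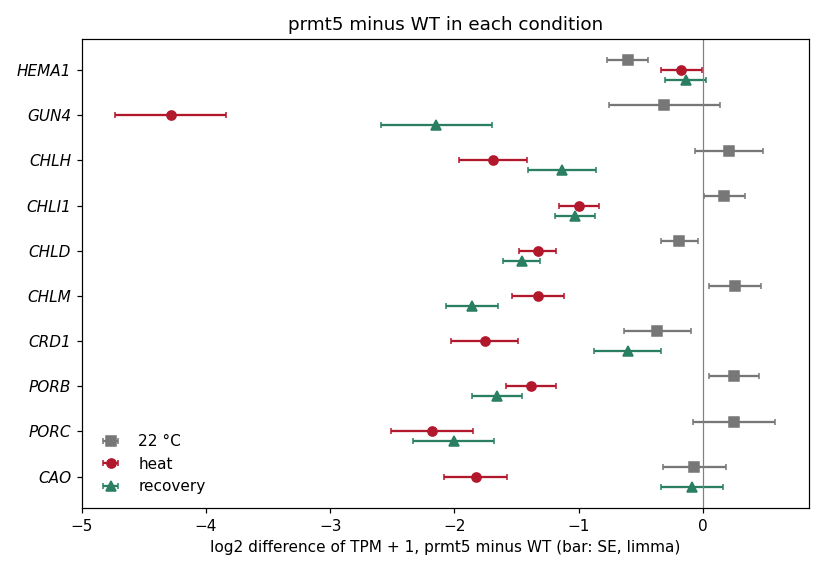
Log2 difference of each gene, prmt5 minus WT, at 22 °C (grey squares), heat (red circles) and recovery (green triangles), with standard errors from limma. The differences at 22 °C lie between -0.60 and 0.26, and those at heat lie at -0.996 or below except for HEMA1.

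The interaction tests, which ask whether the response of prmt5 differs from that of WT, called 9 of 10 genes at heat, all toward a lower level in prmt5, with a median of -1.61 (all genes -0.19; 33.3% of genes lower and 18% higher). At recovery against 22 °C they called 7, again all lower, with a median of -1.31 (all genes 0.08; 20.1% lower and 26.1% higher). HEMA1 passed in neither (0.43 ± 0.23 (adjusted p = 0.138) at heat and 0.47 ± 0.23 (adjusted p = 0.117) at recovery), though it passed at heat under median-ratio scaling (0.67, adjusted p = 0.0421) and at recovery without library 3 of WT at recovery (0.68, adjusted p = 0.0118), and CRD1 and CAO did not pass at recovery (-0.24 ± 0.38 (adjusted p = 0.641) and -0.02 ± 0.36 (adjusted p = 0.976)). PORC had -2.44 ± 0.47 (adjusted p = 0.000502) at heat and -2.26 ± 0.47 (adjusted p = 0.00112) at recovery, and CHLM -1.59 ± 0.30 (adjusted p = 0.000423) and -2.12 ± 0.30 (adjusted p = 5.36e-05). The recovery value of GUN4, -1.84 ± 0.64 (adjusted p = 0.0273), was lost with a pseudocount of 0.1 (adjusted p = 0.252) and without library 1 or 2 of WT at 22 °C, library 2 of prmt5 at 22 °C, library 3 of WT at recovery, or library 1 or 2 of prmt5 at recovery (0.0511 to 0.0692). These comparisons share the libraries at 22 °C.

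Between heat and recovery the genes did not move together. In prmt5 GUN4, CHLI1 and CAO rose, CHLM fell and 6 did not pass, with a median log2 change of 0.41 (all genes 0.21; 43.7% of genes rose and 28.7% fell). The CHLI1 call (0.38 ± 0.16, adjusted p = 0.0495) was lost in most alternatives, and without library 1 of prmt5 at heat 8 genes passed, 7 of them higher. In WT PORB, CHLI1 and CHLD rose, CHLM and CRD1 fell and 5 did not pass, with a median of 0.0006 (all genes -0.03; 31.2% rose and 33.7% fell). Of these calls only that of PORB had groups that did not overlap. The WT count fell to 2 or 3 without library 2 or 3 of WT at heat or library 1 or 2 of WT at recovery, and to 2 with only the groups compared in the model. The step from heat to recovery was higher in prmt5 than in WT for GUN4, CRD1 and CAO and lower for 0 of the 10, or for CHLM under median-ratio scaling and CHLD under quantile normalization (median 0.10, all genes 0.28; 35.1% of genes higher and 14% lower). CAO had 1.74 ± 0.36 (adjusted p = 0.000897), GUN4 2.14 ± 0.64 (adjusted p = 0.0113) and CRD1 1.15 ± 0.38 (adjusted p = 0.0207); the GUN4 value was not past the threshold with a pseudocount of 5 (adjusted p = 0.115), nor that of CRD1 under median-ratio scaling (0.0931) or without library 1 of WT at heat, library 2 of prmt5 at heat, library 1 or 2 of WT at recovery, or library 3 of prmt5 at recovery (0.0512 to 0.0600).

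The order of the genes by level changed with heat. At 22 °C CHLI1, PORB and CRD1 had the highest mean TPM in both genotypes, and CAO the lowest, with HEMA1 next above it. At heat in prmt5 HEMA1, at 70.6 TPM, ranked 3 of 10, after CHLI1 (99.4 TPM) and CRD1 (94.0 TPM), while GUN4 was last. In WT at heat CRD1 (318.1 TPM) led, CHLI1 (200.8 TPM) and CHLH (174.1 TPM) followed, and CHLD was last at 29.5 TPM. HEMA1 per CHLH transcript was 1.39 ± 0.413 in prmt5 and 0.465 ± 0.0530 in WT at heat, against 0.331 ± 0.0196 in prmt5 and 0.586 ± 0.0342 in WT at 22 °C. These orders and ratios were not tested. Over the 18 libraries, which share the 6 conditions, the log2 level of each gene correlated with the mean of the other 9 at 0.87 to 0.97, except for CAO (0.69) and HEMA1 (0.41).

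Genes of the steps before the branch to heme, from a list of 15 of which 14 were tested, also fell for the most part. At heat 12 fell, 1 rose and 1 did not pass in prmt5 (median -1.64), where 36% of all genes fell and 45.5% rose, and 11 fell, 2 rose and 1 did not pass in WT (median -1.24), where 25.7% fell and 49.8% rose. GSA2 (AT3G48730), a glutamate-1-semialdehyde aminotransferase, fell, with a log2 change of -3.71 ± 0.14 in prmt5 (adjusted p = 1.56e-12) and -1.68 ± 0.14 in WT (adjusted p = 2.85e-08). HEMC, porphobilinogen deaminase, and HEME2, uroporphyrinogen decarboxylase, fell, with log2 changes of -3.14 ± 0.14 and -3.53 ± 0.18 in prmt5 and of -1.95 ± 0.14 and -2.396 ± 0.18 in WT. HEMA2 (AT1G09940), the second glutamyl-tRNA reductase gene, rose where HEMA1 did not pass. It had 46.2, 53.3 and 56.1 TPM in prmt5 and 17.9, 23.3 and 21.2 TPM in WT at heat, against 11.7, 11.9 and 10.7 TPM in prmt5 and 11.5, 12.5 and 11.8 TPM in WT at 22 °C. The heat libraries of prmt5 lay above those of WT at heat and all those at 22 °C, with a change of 2.09 ± 0.16 (adjusted p = 4.64e-09) in prmt5 and 0.75 ± 0.16 (adjusted p = 0.000494) in WT, the last of which became 0.37 (adjusted p = 0.0615) under median-ratio scaling. The difference between the changes was 1.34 ± 0.22 (adjusted p = 0.000169). As a ratio of TPM, HEMA2 per HEMA1 was 0.748 ± 0.143 in prmt5 and 0.268 ± 0.0658 in WT at heat, against 0.172 ± 0.00532 in prmt5 and 0.118 ± 0.0101 in WT at 22 °C (SD, n = 3 each). Between genotypes at heat, 11 of the 14 were lower in prmt5 and HEMA2 was higher (1.28 ± 0.16, adjusted p = 3.78e-06), where 48.3% of all genes were lower, but only 6 were lower under median-ratio scaling and 8 under quantile normalization. As deposited, the interaction at heat called 10 of the 14 lower and 1 higher in prmt5 (median -0.51). Over all genes 33.3% were lower and 18% higher in that interaction.

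**Figure D4:**
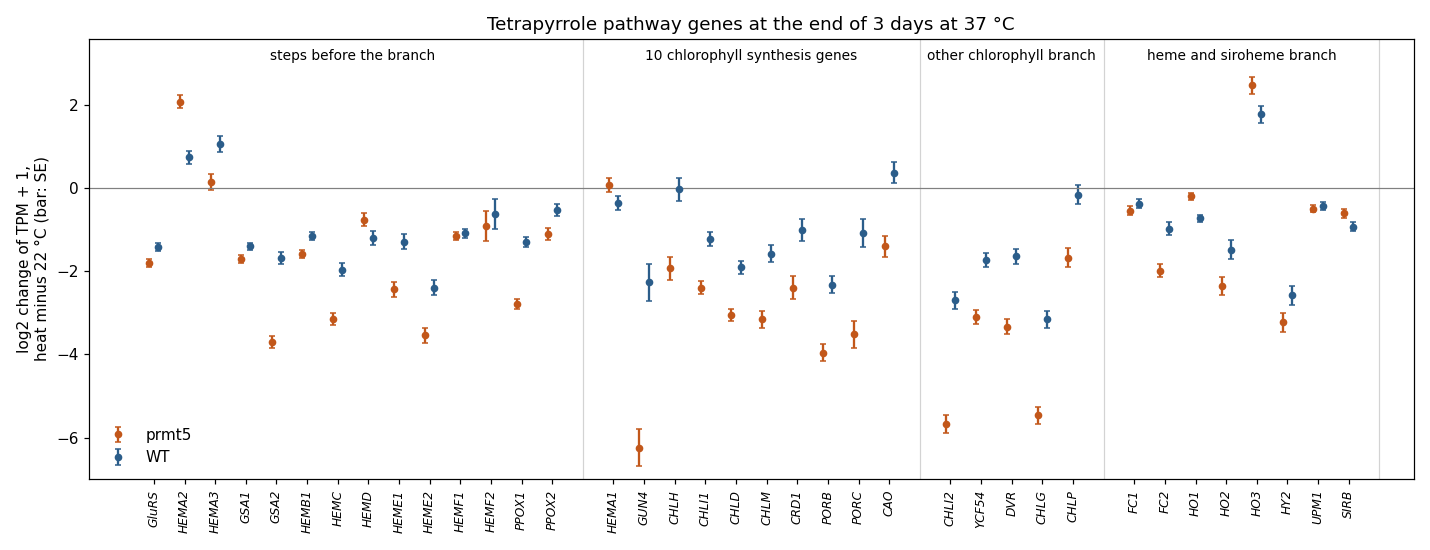
Log2 change at heat against 22 °C (vertical axis, with standard errors from limma) of the 37 tested genes of the pathway in prmt5 and WT, prmt5 left of WT for each gene, in order of the pathway. HEMA2, HEMA3 and HO3 lie above 0 in both genotypes, and GUN4, CHLI2 and CHLG in prmt5 lie below -5.

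Of the 6 other genes on the chlorophyll branch 5 were tested, and all 5 fell in prmt5 at heat (median -3.33), against 4 in WT (median -1.72) with 1 that did not pass. Over all genes 36% fell in prmt5 and 25.7% in WT. CHLG (AT3G51820), chlorophyll synthase, which adds the phytol tail, had 2.06, 0.790 and 1.5 TPM in prmt5 and 23.0, 12.6 and 15.3 TPM in WT at heat, against 94.6, 109 and 112 TPM in prmt5 and 147, 144 and 174 TPM in WT at 22 °C. CHLI2 (AT5G45930), the second CHLI gene, had 2.12, 0.790 and 1.25 TPM in prmt5 and 17.0, 10.3 and 9.76 TPM in WT at heat, against 112, 132 and 110.1 TPM in prmt5 and 79.2, 78.8 and 91.6 TPM in WT at 22 °C. For both genes each heat library lay below each library at 22 °C, and prmt5 lay below WT without overlap at heat. CHLG changed by -5.47 ± 0.20 (adjusted p = 8.51e-13) in prmt5 and -3.16 ± 0.20 (adjusted p = 9.41e-10) in WT, and CHLI2 by -5.67 ± 0.21 (adjusted p = 1.24e-12) and -2.70 ± 0.21 (adjusted p = 1.3e-08). CHLI2 per CHLI1 transcript was 0.0135 ± 0.00479 in prmt5 and 0.0607 ± 0.00688 in WT at heat, and 0.226 ± 0.00836 in prmt5 and 0.180 ± 0.00606 in WT at 22 °C. DVR, the divinyl reductase, fell, with a log2 change of -3.33 ± 0.18 in prmt5 and -1.63 ± 0.18 in WT. Between genotypes all 5 were lower in prmt5 at heat, against 48.3% of all genes, and at recovery, against 31.9%, and all 5 interactions were called in both comparisons, under median-ratio scaling and quantile normalization too. As deposited, all 5 interactions were toward a lower level in prmt5 at both times. Over all genes 33.3% were lower and 18% higher in the heat interaction, and 20.1% lower and 26.1% higher in the recovery interaction.

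The heme and siroheme branch fell for the most part at heat and was mixed at recovery. At heat 7 of its 8 tested genes fell and 1 rose in each genotype (median -0.57 in prmt5 and -0.82 in WT), and at recovery 4 fell and 2 rose in prmt5, against 5 fallen and 2 risen in WT. Over all genes 36% fell in prmt5 and 25.7% in WT at heat, and 24.7% in prmt5 and 17.3% in WT at recovery. The shares that rose were 45.5% in prmt5 and 49.8% in WT at heat, and 53.4% in prmt5 and 49.8% in WT at recovery. The interaction at heat called 2 of the 8 lower and 1 higher in prmt5 (median -0.12), where 33.3% of all genes were lower and 18% higher. Between genotypes at heat 5 of the 8 were lower and 2 higher in prmt5 (median -0.62). Over all genes 48.3% were lower and 19.9% higher in that comparison. HO3, one of the heme oxygenase genes, rose at heat, with a log2 change of 2.49 ± 0.20 in prmt5 (adjusted p = 9.93e-09) and 1.78 ± 0.20 in WT (adjusted p = 8.02e-07). HY2, phytochromobilin synthase, fell, with a log2 change of -3.23 ± 0.22 in prmt5 and -2.58 ± 0.22 in WT. The ferrochelatase genes went apart at recovery. FC1 (AT5G26030) had 116, 121 and 98.1 TPM in prmt5 and 81.3, 77.3 and 73.7 TPM in WT at recovery, against 31.9, 30.9 and 35.4 TPM in prmt5 and 42.9, 40.4 and 36.1 TPM in WT at 22 °C. FC2 (AT2G30390) had 25.2, 27.1 and 27.2 TPM in prmt5 and 41.7, 40.5 and 58.7 TPM in WT at recovery, against 106, 100.4 and 99.7 TPM in prmt5 and 108, 109.9 and 119.9 TPM in WT at 22 °C. FC1 was thus above and FC2 below the range at 22 °C in every recovery library. The changes were 1.74 ± 0.11 (adjusted p = 7.12e-10) in prmt5 and 0.94 ± 0.11 (adjusted p = 1.85e-06) in WT for FC1, and -1.91 ± 0.15 (adjusted p = 9.91e-09) and -1.26 ± 0.15 (adjusted p = 2.49e-06) for FC2.

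Proteins that bind or regulate the enzymes were covered by a list of 8, all tested. At heat 6 fell and 2 did not pass in prmt5 (median -1.60), and 5 fell and 3 did not pass in WT (median -0.82), against 36% of all genes fallen in prmt5 and 25.7% in WT. LIL3:1 (AT4G17600), a light-harvesting-like protein that anchors geranylgeranyl reductase, fell, with a log2 change of -2.96 ± 0.18 in prmt5 (adjusted p = 3.96e-10) and -1.91 ± 0.18 in WT (adjusted p = 1.31e-07). FLU (AT3G14110), the inhibitor of glutamyl-tRNA reductase in the dark, fell at recovery, with a log2 change of -2.92 ± 0.13 in prmt5 (adjusted p = 1.91e-11) and -2.06 ± 0.13 in WT (adjusted p = 3.52e-09). At recovery 7 of the 8 were lower and 1 higher in prmt5 than in WT, where 31.9% of all genes were lower and 27.8% higher.

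Transcription factors with a known part in greening, a list of 11, did not share 1 direction. In prmt5 6 fell, 3 rose and 2 did not pass at heat, and in WT 4 fell, 5 rose and 2 did not pass, where 36% of all genes fell and 45.5% rose in prmt5 and 25.7% fell and 49.8% rose in WT. The activators GLK1, GNC and CGA1 fell at heat, with log2 changes of -1.95 ± 0.30, -2.53 ± 0.22 and -2.70 ± 0.22 in prmt5 and of -0.82 ± 0.30, -0.78 ± 0.22 and -0.65 ± 0.22 in WT. GNC had 10.98, 5.58 and 4.89 TPM in prmt5 and 30.9, 24.1 and 21.8 TPM in WT at heat, and its interaction was -1.75 ± 0.31 (adjusted p = 0.000255). PIF4 (AT2G43010), a factor of growth in warmth, had 3.90, 2.16 and 3.27 TPM in prmt5 and 17.2, 10.01 and 12.2 TPM in WT at heat, against 5.41, 4.44 and 5.86 TPM in prmt5 and 0.680, 0.880 and 0.870 TPM in WT at 22 °C. Its order between the genotypes was thus opposite at 22 °C and at heat, with an interaction of -3.55 ± 0.32 (adjusted p = 1.14e-06). PIF5, a related factor, had an interaction of -2.90 ± 0.40 (adjusted p = 2.96e-05). HY5 (AT5G11260), which promotes light-responsive genes, had 67.6, 64.5 and 59.6 TPM in prmt5 and 40.0, 45.5 and 33.1 TPM in WT at recovery, against 17.2, 19.5 and 21.6 TPM in prmt5 and 38.8, 33.3 and 32.4 TPM in WT at 22 °C. It rose at recovery in prmt5 (1.67 ± 0.14, adjusted p = 1.64e-08), with 0.17 ± 0.14 (adjusted p = 0.288) in WT. Whether any of these moved the 10 genes was not tested.

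Outside all lists, the 5 genes whose log2 level followed the mean of the 10 most closely over the 18 libraries, of 13311 genes with a mean of at least 10 TPM, were CaS (AT5G23060, Pearson r = 0.991), GOX2 (AT3G14415, 0.989), GOX1 (AT3G14420, 0.988), PEX11D (AT2G45740, 0.985) and AT2G03750 (0.985). CaS, a chloroplast calcium-sensing protein, averaged 31.0 TPM in prmt5 and 190.5 TPM in WT at heat, against 406.1 TPM in prmt5 and 413.3 TPM in WT at 22 °C. GOX1 and GOX2 are near-identical neighbours, so their reads may be split between them. The 5 with the most opposite course were AT5G15640 (r = -0.977), AT1G17620 (-0.973), ARSK1 (AT2G26290, -0.972), FER (AT3G51550, -0.971) and AT1G71940 (-0.966). ARSK1 averaged 93.1 TPM in prmt5 and 10.7 TPM in WT at heat, against 1.80 TPM in prmt5 and 2.23 TPM in WT at 22 °C. These are descriptions over libraries that share 6 conditions.

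Within each of the 6 groups the same library was highest for most of the 10 genes. In prmt5 library 1 at heat was highest for 9 of 10, against 51.1% of all genes tested, and library 3 at recovery for 9 of 10, against 30.0%. In WT library 3 was highest for 10 of 10 at 22 °C, against 33.0% of all genes, and at recovery, against 36.0%. In WT at heat library 1 was highest for 10 of 10, against 33.7%, and library 3 lowest for 10 of 10, against 22.7%. In prmt5 at 22 °C libraries 1, 2 and 3 were highest for 2, 6 and 2 genes, against 21.3%, 21.7% and 53.8% of all genes. Library 3 was lowest there for 7 of 10, against 13.2%. Markers of other tissues varied beside them. The summed level of 12 root markers was 10.7 to 19.9 TPM in prmt5 and 11.6 to 20.3 TPM in WT at heat, against 44.6 to 76.0 TPM in prmt5 and 18.6 to 105 TPM in WT at 22 °C, where library 3 of WT was the lowest at 18.6 TPM. At recovery it was 40.5 to 51.7 TPM in prmt5 and 46.2 to 105 TPM in WT. None of the 12 was at 0 in all libraries of a group, and CASP2, EXPA7 and EXPA18 were at 0 in some heat libraries.

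Shoot epidermis markers, which are not genes of chlorophyll synthesis, moved beside them: at heat 8 of 8 fell in prmt5 and 7 of 8 in WT, against 36% of all genes in prmt5 and 25.7% in WT. The summed level of these genes was 935 to 1050 TPM in prmt5 and 754 to 858 TPM in WT at 22 °C, 121 to 191 TPM in prmt5 and 257 to 358 TPM in WT at heat, and 203 to 276 TPM in prmt5 and 428 to 476 TPM in WT at recovery. All 8 were lower in prmt5 than in WT at heat, against 48.3% of all genes (6 under median-ratio scaling and under quantile normalization), and none was at 0 in any library. As deposited, the interaction at heat called 7 of the 8 lower and 0 higher in prmt5 (median -1.15). Over all genes 33.3% were lower and 18% higher in that interaction. At recovery 6 of the 8 were lower in prmt5 than in WT, where 31.9% of all genes were lower and 27.8% higher. CER1 was higher in prmt5 then (0.45 ± 0.14, adjusted p = 0.0144), and TMM did not pass (adjusted p = 0.904). Clock genes also differed between groups: CCA1 had 56.7, 48.3 and 46.4 TPM in prmt5 and 3.84, 4.70 and 5.53 TPM in WT at recovery, and 5 of 9 clock genes were higher and 3 lower in prmt5 than in WT then, where 27.8% of all genes were higher and 31.9% lower. At heat against 22 °C, 8 of the 9 rose and 1 fell in prmt5, where 45.5% of all genes rose and 36% fell. In WT 8 rose and 0 fell in that comparison, where 49.8% of all genes rose and 25.7% fell. The part of tissue share, hour of harvest or clock phase in the levels of the 10 genes was not tested.

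**Figure D5:**
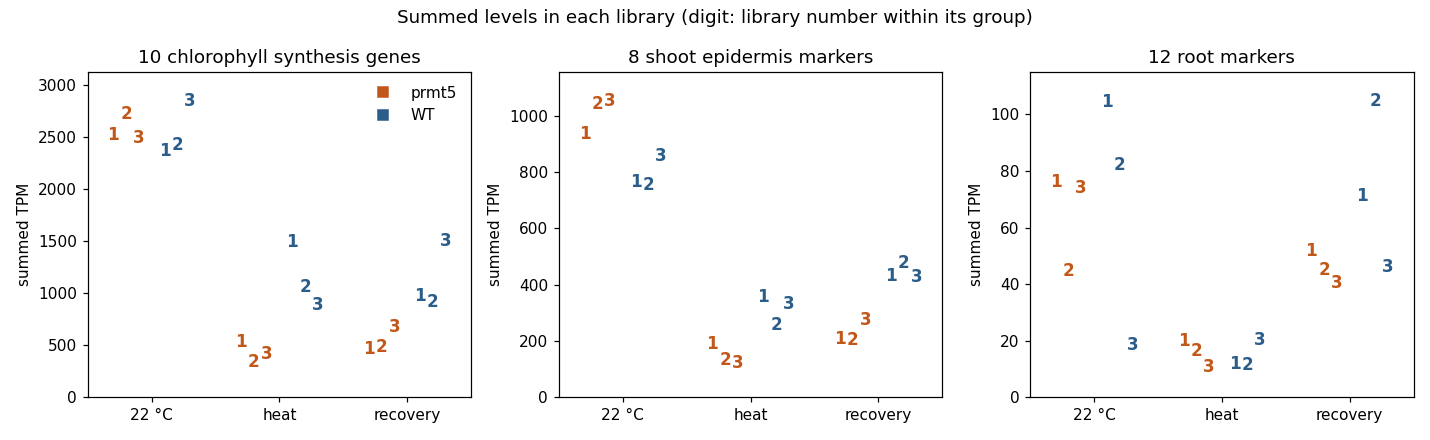
Summed TPM in each library of the 10 chlorophyll synthesis genes (left), 8 shoot epidermis markers (middle) and 12 root markers (right) at 22 °C, heat and recovery, prmt5 left of WT; the digit is the library number within its group and each vertical axis starts at 0. The sums of the chlorophyll synthesis genes and of the shoot epidermis markers are lower in every prmt5 library than in every WT library at heat and at recovery, and root markers overlap between the genotypes at heat.

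The scale of the values moved the counts over all genes. With median-ratio scaling, which sets a typical gene to no change, the median over all genes became 0.005 in place of 0.35 for WT heat against 22 °C, 0.02 in place of 0.35 for WT recovery, 0.06 in place of 0.19 for prmt5 heat and 0.07 in place of 0.45 for prmt5 recovery. Between genotypes it became -0.02 in place of -0.34 at heat and 0.004 in place of -0.10 at 22 °C, and for prmt5 recovery against heat -0.03 in place of 0.21. For the interactions it became 0.01 in place of -0.19 at heat and 0.02 in place of 0.28 from heat to recovery. Calls over all genes were then 8164 higher and 8113 lower for WT heat (10879 and 5602 as deposited), 6700 and 6643 for WT recovery (10871 and 3775), 8730 and 7832 for prmt5 recovery (11649 and 5384) and 7876 and 8323 for prmt5 recovery against heat (9532 and 6274). They were 7286 and 7368 for the genotypes at heat (4344 and 10541), 2004 and 1657 at 22 °C (795 and 2461), and 5934 and 5668 for the heat interaction (3924 and 7277). For the interaction from heat to recovery they were 5262 and 5122 (7666 and 3060). On that scale 9 of the 10 chlorophyll synthesis genes were still lower in prmt5 than in WT at heat and 7 at recovery, and HEMA1 joined the genes that fell in WT.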

How the data were processed

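Oligo-dT selected RNA of seedlings was sequenced with a TruSeq kit, per the labels. The deposited values are the authors' TPM, for which the submitters' processing notes name RSEM and TAIR10 without versions; depth is unknown and no count model was used. The table's 6 columns of group means were not used, and 0 value columns lacked a sample or group. Groups came from the labels.

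Values were taken as log2(TPM + 1) for the 21831 genes that averaged 1 TPM or more. One model of 6 group means was fitted to all 18 libraries with limma 3.58.1 in R 4.3.3 (eBayes with trend, 12 residual degrees of freedom), two-sided, adjusted by Benjamini-Hochberg within each comparison at 0.05, and was tested on simulated data. Members, lists and tests were chosen with earlier results of these data known. All 10 members are named. From other lists, at most 3 genes with the highest and 3 with the lowest change past the threshold are named per comparison. Sequences and positions are from RefSeq TAIR10.1, matched by identifier for 10 of 10 genes. The deposited table holds no coordinates. Tables and plots used Python 3.11.15, pandas 2.3.3, numpy 2.4.6 and matplotlib 3.10.9. Each result was also computed with a replicate block, without each library, with a pseudocount of 0.1 or 5, with no filter or one at a mean of 5 TPM, after quantile normalization or median-ratio scaling, without organelle genes, and in a model of only the groups compared.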

Additional observations from a re-analysis of the deposited data

Results flagged for a closer look

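The response of 9 genes to heat differed between the genotypes by a test of the difference itself (limma, adjusted over all genes). In log2 units, prmt5 minus WT, the differences were -3.98 for GUN4, -2.44 for PORC, -1.90 for CHLH, -1.76 for CAO, -1.63 for PORB, -1.59 for CHLM, -1.39 for CRD1, -1.17 for CHLI1 and -1.14 for CHLD. The GUN4 value rests on 2 prmt5 heat libraries listed at 0 and became -6.26 with a pseudocount of 0.1 and -2.30 with 5. The same test of recovery against 22 °C gave -2.26 for PORC, -2.12 for CHLM, -1.91 for PORB, -1.84 for GUN4, -1.35 for CHLH, -1.27 for CHLD and -1.21 for CHLI1. From heat to recovery it gave 2.14 for GUN4, 1.74 for CAO and 1.15 for CRD1. Over all genes these tests called a large share in either direction, so a call by itself does not set a gene apart.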

How the results depend on the processing

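Over the 12 counts of chlorophyll synthesis genes past the threshold, 2 moved by more than 1.5 times outside the runs that left out a library. WT recovery against heat (5 genes) gave 2 with no filter, 3 with organelle genes left out and 2 with only the groups compared. The genotypes at 22 °C (1 gene, HEMA1) gave 0 under median-ratio scaling and 0 under quantile normalization. With 1 library left out the counts ran from 7 to 8 for WT heat, 6 to 8 for WT recovery, 2 to 6 for WT recovery against heat, 9 to 9 for prmt5 heat, 8 to 8 for prmt5 recovery and 3 to 8 for prmt5 recovery against heat, where 8 came without prmt5 heat library 1. They ran from 0 to 1 for the genotypes at 22 °C, 9 to 9 at heat, 7 to 8 at recovery, and 9 to 9, 6 to 7 and 2 to 4 for the interactions at heat, at recovery and from heat to recovery. Of the values of single genes, 0 reversed a call. The cause of these shifts was not tested. Replicate numbers are shared between groups, but in no comparison were all 3 correlations of same-numbered libraries' deviations over 0.1 (-0.20 to 0.19), so they were not taken as pairs. The nearest was prmt5 against WT at heat (0.1894, 0.0974 and 0.1146), where 6 of 6 libraries correlated best with their own number, a hint from the data and not the design; in the other comparisons 0 to 5 of 6 did. With the numbers as a replicate block, 118 of 120 values of single genes kept their side of the threshold; CHLD in WT recovery against heat (adjusted p = 0.0502) and CHLI1 in prmt5 recovery against heat (adjusted p = 0.0571) lost it, and the counts became 4 and 3. Depth is unknown for TPM, so no limit for genes listed at 0, such as GUN4 in 2 prmt5 heat libraries, can be given.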
